A study of Mus musculus with 56 samples.

Results

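TH2 cells are the CD4+ helper T cells that secrete IL-4, IL-5 and IL-13, and the transcripts that set them apart from TH1, TH17 and Treg cells were measured here in wild-type (WT) libraries only. The members are the 7 WT TH2 libraries of the series, 4 in a count table shared with Odc-deficient libraries (the Odc set) and 3 in a count table shared with Dohh-deficient libraries (the Dohh set), of 55 libraries with counts in these tables. They were compared with the 12 and 9 WT libraries of the other subsets in the same set, and the Dohh set served as the replication. All groups were CD4+ T cells of C57BL/6 mice, isolated from spleen and lymph nodes by negative selection and polarized for 4 days. The WT mice lacked the CD4-cre transgene and were littermates from crosses of mice with loxP-flanked Odc or Dohh, and mice of the study were typically 6 to 10 weeks old. The labels do not say that replicates came from separate mice, so p-values measure the spread between these libraries, which may be technical in part.

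All cultures were stimulated through CD3 (5 μg/mL of antibody) and CD28 (2 μg/mL), with IL-2 at 100 U/mL. For TH2 cells, IL-4 and IL-2 were added at 10 ng/mL each and IFN-γ was blocked by 4 μg/mL of antibody. For TH1 cells, IL-12 and IL-2 were added at 10 ng/mL each, and IL-4 was blocked. TH17 cultures held IL-1β, with IL-6 and TGF-β at 5 ng/mL each, and Treg cultures held TGF-β and IL-2 at 10 ng/mL each, and in both of these IL-4 and IFN-γ were blocked. Each comparison is therefore between cultures that differ in several added proteins at once.

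As background, IL-4 binds its receptor on the T cell and activates the transcription factor STAT6, which raises GATA3, the factor that opens and maintains the TH2 cytokine genes. Il4, Il13 and Il5 lie next to one another on the same chromosome, with Rad50 between the last pair, and Rad50 holds a control region for the cluster. IL-4 instructs B cells to switch to IgE, IL-5 sustains eosinophils, and IL-13 acts on epithelium and smooth muscle, the arm of immunity used against worms and at work in allergy.

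The TH2 libraries held 6999984 to 8417521 counts in the Odc set and 8921978 to 12554463 in the Dohh set, and the other WT libraries 6978044 to 9145214 and 8328721 to 12576933. Levels are given as CPM, the counts of a gene scaled to a common library size. A count of 0 allows up to 3 counts in a library, 0.231 to 0.44 CPM here, and this limit covers counting error only. Replicate 4 of the Odc set stood apart from replicates 1 to 3 in several genes and subsets, so its values are named where they matter. Without replicate 4 in every subset, 290 genes were higher and 167 lower in TH2 cells than in each other subset of that set, against 287 and 156 with it.

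A gene was called at a change of more than 2-fold and an adjusted p below 0.05 by the edgeR quasi-likelihood test, adjusted over all tested genes by Benjamini-Hochberg. In the Odc set, 1161 of 12878 tested genes (9.02%) differed between TH2 and TH1 cells, 2205 (17.1%) between TH2 and TH17 cells and 2640 (20.5%) between TH2 and Treg cells. The counts of the Dohh set were 1258 of 12825 genes (9.81%), 2282 (17.8%) and 2619 (20.4%). In the Odc set, 559 genes (4.34%) were higher and 602 lower in TH2 than in TH1 cells, 1269 (9.85%) higher and 936 lower than in TH17 cells, and 1488 (11.6%) higher and 1152 lower than in Treg cells. The Dohh set gave 565 (4.41%) and 693, 1094 (8.53%) and 1188, and 1351 (10.5%) and 1268. TH1 was thus the subset with the fewest differences from TH2 in both sets, and the counts were not tested against each other. Genes higher in TH2 cells than in each of the other 3 subsets numbered 287 (2.23%) and 267 (2.08%), and genes lower than in each numbered 156 (1.21%) and 219 (1.71%).

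Among the 12185 genes tested in both sets, 176 (1.44%) were higher in TH2 cells than in every other subset in both, which is 67.4% of the 261 such genes of the Odc set and 71.8% of the 245 of the Dohh set. Another 90 genes (0.739%) were lower in both, 64.3% of 140 and 45% of 200. Across genes, the log2 fold changes of the 2 sets had a Pearson r of 0.86 against TH1, 0.81 against TH17 and 0.90 against Treg, a description over genes, which are not independent replicates. The other subset closest to TH2 was TH1 in both sets for 71 of the 176 higher genes, Treg for 31 and TH17 for 18, and the remaining genes had a different closest subset in each set.

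**Figure D1:**
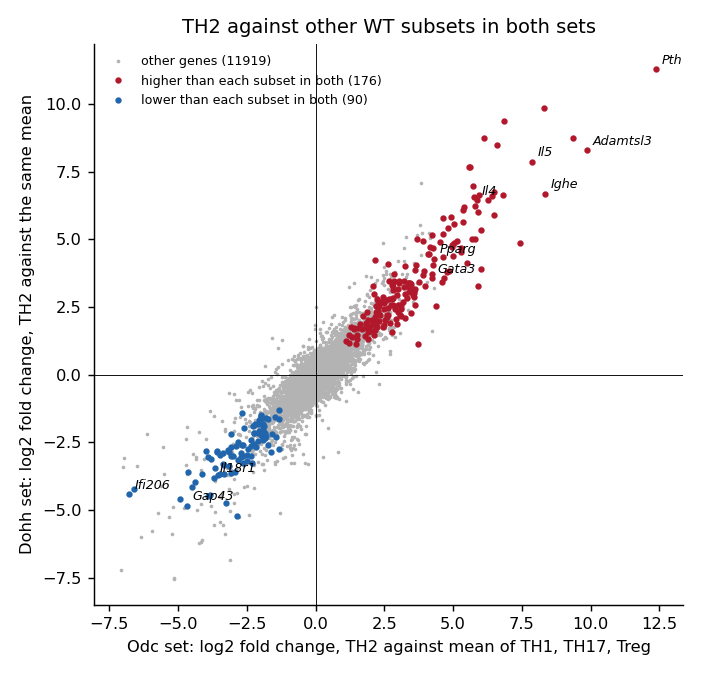
Each point is 1 of the 12185 genes tested in both sets, with the log2 fold change of WT TH2 cells against the mean of WT TH1, TH17 and Treg cells in the Odc set (x axis) and in the Dohh set (y axis). The 176 genes called higher than each subset in both sets (red) and the 90 called lower (blue) are marked, with Pth at the upper end. Their shared direction follows from this selection and does not measure the agreement of the sets.

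The promoters of the 3 clustered cytokine genes and of Pth, the gene with the largest difference, are shown because these genes were higher in every TH2 library than in any other WT library. Each run is the 250 bases before the gene's start in RefSeq on GRCm38.p6, read 5′ to 3′ on the gene's own strand. Capitals mark GATA or its reverse complement TATC, and in Il4 the single TTC followed after 4 bases by GAA, a spacing known to be favoured by STAT6. That motif reads the same on both strands, and it overlaps no GATA here. The windows are chr11:53618666-53618915 for Il4, chr11:53634703-53634952 for Il13, chr11:53720544-53720793 for Il5 and chr7:113388574-113388823 for Pth, with Il5 on the plus strand and the others on the minus strand.
Il4: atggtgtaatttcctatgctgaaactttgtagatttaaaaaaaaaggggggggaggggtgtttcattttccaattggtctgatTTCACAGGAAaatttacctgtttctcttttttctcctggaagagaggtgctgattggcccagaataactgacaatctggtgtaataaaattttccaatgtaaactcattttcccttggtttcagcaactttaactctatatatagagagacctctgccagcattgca
Il13: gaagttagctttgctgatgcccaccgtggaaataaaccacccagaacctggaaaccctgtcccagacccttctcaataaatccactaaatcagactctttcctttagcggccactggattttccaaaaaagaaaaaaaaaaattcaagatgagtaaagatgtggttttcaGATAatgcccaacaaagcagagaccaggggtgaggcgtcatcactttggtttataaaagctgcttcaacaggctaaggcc
Il5: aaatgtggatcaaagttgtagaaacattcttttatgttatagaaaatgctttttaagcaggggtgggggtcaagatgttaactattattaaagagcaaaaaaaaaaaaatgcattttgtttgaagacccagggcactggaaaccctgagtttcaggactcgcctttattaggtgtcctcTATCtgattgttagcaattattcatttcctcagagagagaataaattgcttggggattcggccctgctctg
Pth: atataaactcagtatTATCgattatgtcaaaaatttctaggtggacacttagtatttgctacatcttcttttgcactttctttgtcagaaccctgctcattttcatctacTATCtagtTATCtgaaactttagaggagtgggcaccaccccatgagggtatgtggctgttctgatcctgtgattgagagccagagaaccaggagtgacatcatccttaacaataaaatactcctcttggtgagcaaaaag
Counted from the first base before the start as -1, the TTC motif began at -167 in Il4, and GATA or TATC at -80 in Il13, at -71 in Il5 and at -235, -140 and -132 in Pth. GATA or TATC was present in 51.2% of all 20590 promoter windows of this length, in 40.5% of the 9313 windows of genes tested in both sets and in 46.5% of the 129 windows of the genes higher in TH2 cells in both sets, and in 49.2% of the 65 windows of the genes lower in both. TTC with GAA after 4 bases was present in 5.56%, 4.39%, 6.2% and 9.23% of these windows, so neither motif was more frequent in the higher than in the lower genes. The window of Ifng, a TH1 gene, held 1 GATA or TATC, at -111. That of Gata3 held none, but it lies before a start at 9878600, inside the annotated gene. The bases before the outer end of that gene, at 9890034, were not examined. A match is a stretch of letters and was not measured as a bound site.

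Il4 (ENSMUSG00000000869.12; chromosome 11 from 53602982 to 53618669, minus strand, GRCm38) encodes the cytokine that also drives TH2 differentiation. Its level in the TH2 libraries was 66.9, 61.0, 69.9 and 35.4 CPM in the Odc set and 53.9, 64.1 and 72.0 CPM in the Dohh set. The other WT libraries held 0.434 to 3.35 CPM and 0.26 to 1.49 CPM. No TH2 library overlapped with another subset, and replicate 4 of the Odc set was the lowest TH2 library. The log2 fold changes were 6.29 (standard error 0.42) against TH1, 5.22 (standard error 0.36) against TH17 and 6.06 (standard error 0.39) against Treg in the Odc set (largest adjusted p = 7.81e-09 from the edgeR quasi-likelihood test) and 6.06 (standard error 0.28) against TH1, 6.25 (standard error 0.29) against TH17 and 7.07 (standard error 0.31) against Treg in the Dohh set (largest adjusted p = 9.41e-13).

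Il5, the eosinophil growth factor, had 39.9, 37.9, 42.9 and 72.8 CPM in TH2 libraries of the Odc set and 23.7, 24.2 and 19.5 CPM in those of the Dohh set. No other WT library exceeded 0.461 CPM, at or near the limit of a few counts. Replicate 4 was the highest Il5 library and the lowest Il4 library of its group. The annotation places 27.1% of the Il5 exon bases under another gene, and the strand setting of the counting is not given in the sources used here. Il13 reached 281, 319.6, 351 and 653 CPM and 238, 255 and 187 CPM in TH2 libraries, against 2.39 to 12.8 CPM and 1.30 to 7.77 CPM in the others. Its log2 fold changes were 5.90, 5.89 and 7.01 against TH1, TH17 and Treg in the Odc set and 5.23, 7.23 and 6.95 in the Dohh set (largest adjusted p = 6.8e-09 and 1.21e-14 from the edgeR quasi-likelihood test). By CPM, Il13 was thus several times above Il4 and Il5 within the same libraries, without adjustment for transcript length.

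**Figure D2:**
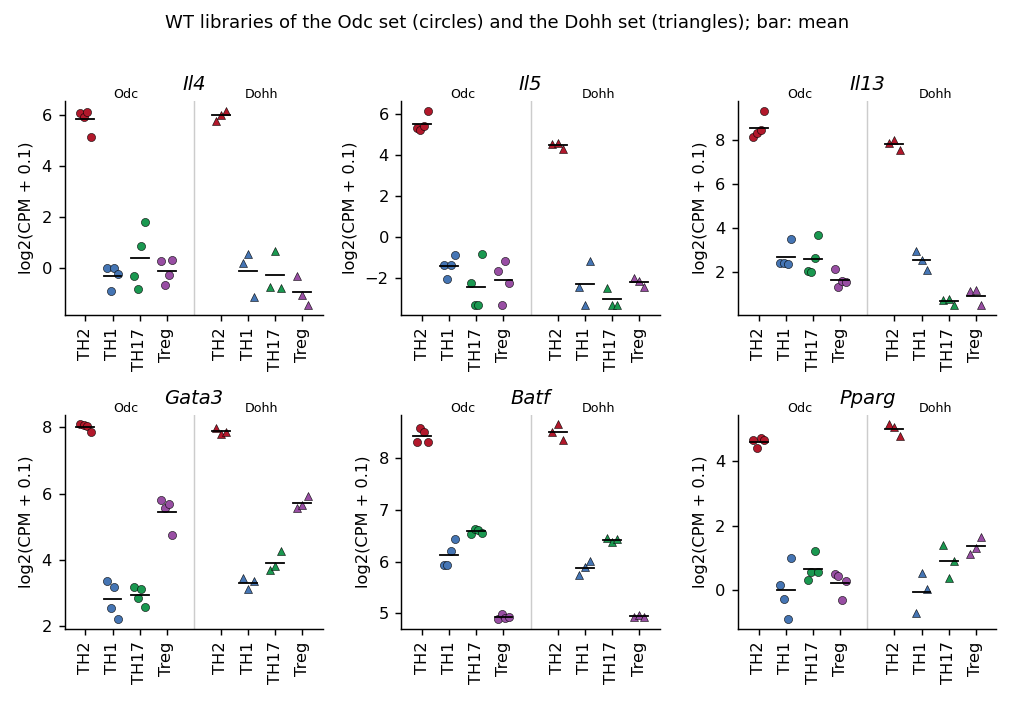
Each point is 1 WT library, on the y axis as log2(CPM + 0.1), with subsets on the x axis, the Odc set as circles on the left (4 libraries per subset), the Dohh set as triangles on the right (3 per subset) and bars at the means. For Il4, Il5, Il13, Gata3, Batf and Pparg, all TH2 libraries (red) lie above all other libraries in both sets.

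Of the 12 genes in a list of TH2 cytokines, 10 were tested in the Odc set and 9 in the Dohh set, and 4 and 3 of them were higher in TH2 cells than in each other subset, against 2.23% and 2.08% of all tested genes. The median log2 fold change of the list was 1.32, 4.20 and 6.57 against TH1, TH17 and Treg in the Odc set and 0.97, 6.25 and 6.95 in the Dohh set, where the medians over all genes were within 0.02 of 0. The fourth gene of the Odc set was Il31, an itch-related cytokine, at 2.23, 2.26, 1.48 and 1.43 CPM in TH2 libraries and 0.147, 0.579, 0.732 and 1.17 CPM in TH1 libraries, which differed by 1.48 (standard error 0.47) on the log2 scale (adjusted p = 0.0355 from the edgeR quasi-likelihood test). That call did not hold with DESeq2 (adjusted p = 0.0506), or without TH2 replicate 1 or 2 or TH1 replicate 1, 2 or 3 (log2 fold changes 1.15 to 1.53, adjusted p 0.0665 to 0.101). In the Dohh set Il31 had too few counts to be tested, at 0.419, 0.322 and 0.458 CPM in TH2 libraries and 0 in all others.

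Il24 and Il10 were shared with TH1 cells. Il24, an IL-10 family cytokine known to respond to IL-4, was at 749.7 to 799 CPM in TH2 and 452 to 493 CPM in TH1 libraries of the Odc set, 0.71 (standard error 0.2) apart on the log2 scale and so under 2-fold, and at 32.5 to 44.0 CPM in TH17 and 1.87 to 8.49 CPM in Treg libraries. The order was the same in the Dohh set, with 725 to 860.1 CPM in TH2 and 479.7 to 524 CPM in TH1 libraries. Il10, an anti-inflammatory cytokine, differed between TH2 and TH1 by 0.91 (standard error 0.19) and 0.97 (standard error 0.18), below the 2-fold threshold (1.12 in the Dohh set without TH1 replicate 3), and from TH17 and Treg by 2.00 and 6.22 in the Odc set and by 2.27 and 5.18 in the Dohh set. Il21, a cytokine that helps B cells, was higher than in Treg libraries (8.57 and 8.89) and was not called against TH1 libraries (0.15 and 0.69).

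Il9, a mast cell growth factor made by some TH2-related cells, was low in TH2 libraries at 1.86, 4.93, 1.88 and 7.57 CPM and 2.10, 4.94 and 1.72 CPM. Against TH17 in the Odc set its log2 fold change was -0.64 (adjusted p = 0.548 from the edgeR quasi-likelihood test), and it turned to 1.74 (adjusted p = 0.0443) without replicate 4 of the TH17 libraries, which alone held 21.7 CPM where the other 3 held 0.808 to 1.49 CPM. In the Dohh set Il9 was lower in TH2 than in Treg libraries, a difference of -1.18 (adjusted p = 0.012) that was not called without TH2 replicate 1 (-0.96, adjusted p = 0.0651), without TH2 replicate 3 (-0.93, adjusted p = 0.0638) or without Treg replicate 2 (-0.74, adjusted p = 0.0916).

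Gata3, the TH2 lineage factor (ENSMUSG00000015619.10; chromosome 2 from 9857078 to 9890034, minus strand), was high in every library labelled TH2. It was at 272, 266, 261 and 231 CPM in TH2 libraries of the Odc set and 252, 223 and 233 CPM in those of the Dohh set. TH1 and TH17 libraries held 4.53 to 10.3 CPM and 8.57 to 19.0 CPM, and Treg libraries, where Gata3 is also known to be used, 27.0 to 55.4 CPM and 47.2 to 61.0 CPM. The log2 fold changes were 5.12 (standard error 0.25) against TH1, 5.07 (standard error 0.24) against TH17 and 2.50 (standard error 0.21) against Treg in the Odc set and 4.58 (standard error 0.15) against TH1, 3.97 (standard error 0.15) against TH17 and 2.16 (standard error 0.13) against Treg in the Dohh set (largest adjusted p = 3.26e-08 and 1.39e-11 from the edgeR quasi-likelihood test). Thus Treg cells stood between TH2 cells and the other 2 subsets.

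In the list of 20 TH2 transcription factors, 5 of 20 tested genes in the Odc set and 4 of 19 in the Dohh set were higher in TH2 cells than in each other subset, beside 2.23% and 2.08% of all tested genes. Gata3, Pparg, Bhlhe41 and Batf were called in both. Pparg, a nuclear receptor for fatty acids, was at 25.1, 21, 26.4 and 25.0 CPM and 35.2, 33 and 27.3 CPM in TH2 libraries and at 0.439 to 2.24 CPM and 0.518 to 3.03 CPM in the rest, log2 fold changes of 3.97 to 4.56 and 3.67 to 5.12 (largest adjusted p = 3.16e-09 and 2.07e-11). Batf, an AP-1 family factor used in several helper subsets, was at 319, 385, 365 and 319.9 CPM and 364, 403 and 327 CPM. The next subset for Batf was TH17, at 92.6 to 99.2 CPM and 82.7 to 88.0 CPM, then TH1 and then Treg at 29.6 to 31.5 CPM and 30.3 to 31.4 CPM. Its log2 fold changes were 2.30, 1.86 and 3.51 and 2.63, 2.09 and 3.57 against TH1, TH17 and Treg (largest adjusted p = 5.75e-10 and 1.07e-12 from the edgeR quasi-likelihood test).

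Bhlhe41, a transcriptional repressor, was low but higher in TH2 cells, at 8.42, 5.19, 7.13 and 4.42 CPM and 3.02, 2.15 and 4.35 CPM against 0 to 1.18 CPM and 0 to 1.39 CPM. Its difference from TH17 in the Dohh set, 1.46 (standard error 0.44), was no longer called without TH2 replicate 3 (1.19, adjusted p = 0.0557) or with the deficient libraries in the fit (adjusted p = 0.312). Gfi1, a repressor that supports growth of TH2 cells, was called in the Odc set, with 1.10 against Treg, which fell to 0.89 without replicate 4 of the Treg libraries, and in the Dohh set it differed from Treg by 0.78, under 2-fold. Maf, a factor for Il4 transcription, was highest in TH17 libraries, and TH2 libraries differed from those by -1.87 and -1.81. Stat6 itself was at 289 to 299 CPM in TH2 and 256 to 307 CPM in other libraries of the Odc set and passed the call in no comparison.

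Rad50, Kif3a and Sept8 were higher in TH2 cells together with the 3 cytokine genes beside which they lie. The annotation holds 27 genes whose lower coordinate lies within 250 kb of that of Il4, of which 8 were tested in the Odc set and 9 in the Dohh set, and the same 6 were higher in TH2 cells than in each other subset in both sets, against 2.23% and 2.08% of all tested genes. Rad50, a DNA repair protein, was at 207, 180.3, 204 and 198 CPM and 114, 96.2 and 93.0 CPM in TH2 libraries and at 49.2 to 64.3 CPM and 29.1 to 51.8 CPM in the others. Its log2 fold changes were 1.75, 1.85 and 1.76 and 1.19, 1.61 and 1.46 against TH1, TH17 and Treg (largest adjusted p = 2.38e-10 and 2.39e-07 from the edgeR quasi-likelihood test). The Dohh-set difference from TH1 was 1.0 without replicate 1 of every subset.

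Sept8, a septin of the cytoskeleton, was at 67.9, 61.5, 70.5 and 56.2 CPM and 72.3, 55.6 and 54.3 CPM in TH2 libraries against 10.0 to 18.3 CPM and 7.29 to 17.2 CPM. Kif3a, a motor protein that lies between Sept8 and Il4, was at 60.9, 45.8, 54.3 and 48.1 CPM and 47.5, 49.9 and 50.5 CPM against 10.9 to 24.6 CPM and 11.5 to 22.8 CPM. The log2 fold changes were 2.11 to 2.33 and 1.96 to 2.64 for Sept8 and 1.28 to 1.92 and 1.22 to 1.89 for Kif3a, smaller than those of the cytokine genes. The annotation gives no exon of Rad50, Kif3a or Sept8 an overlap with another gene. Irf1 and Uqcrq, at the outer sides of the window, were not called, with -0.89 to 0.13 and -0.22 to 0.04 for Irf1 and 0.11 to 0.70 and 0.20 to 0.41 for Uqcrq. Gm12216, tested in the Dohh set alone, was not called either, with -0.61, 0.24 and -0.60. The promoter window of Kif3a held no GATA or TATC.

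**Figure D3:**
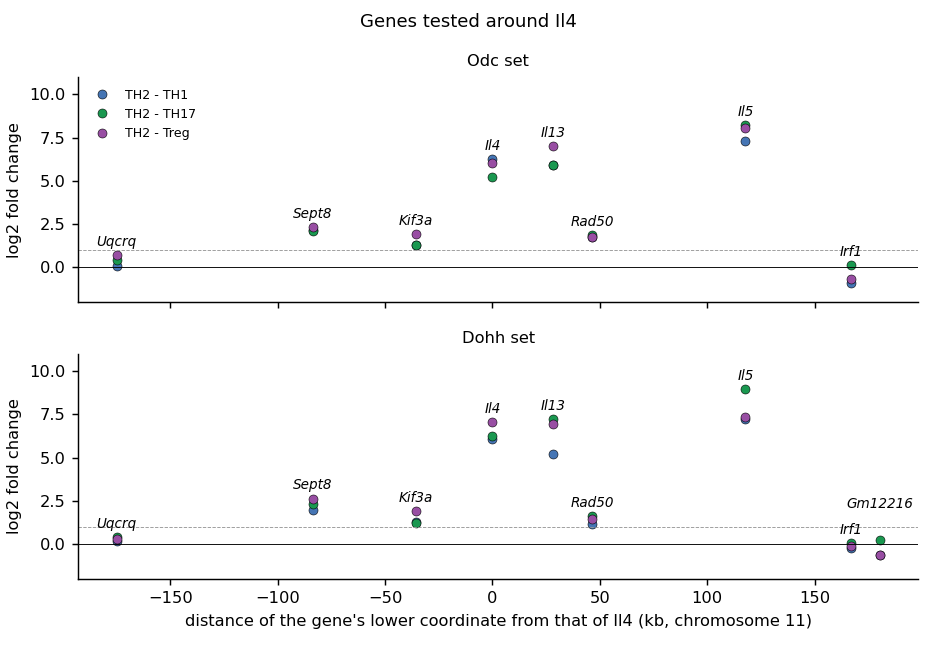
The y axis gives the log2 fold change of WT TH2 cells against TH1 (blue), TH17 (green) and Treg (purple) cells for each tested gene within 250 kb of Il4, and the x axis the distance of the gene's lower coordinate from that of Il4 in kb. The upper panel is the Odc set and the lower the Dohh set. The 6 genes from Sept8 to Il5 lie above the dashed line at 1 in both, and Uqcrq, Irf1 and, in the Dohh set, Gm12216 do not.

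In the list of 16 TH2 receptors, 2 of 14 and 2 of 15 tested genes were higher in TH2 cells than in each other subset (2.23% and 2.08% of all tested genes were), Il9r and Cd200r1 in both sets. Il9r, the IL-9 receptor chain, was at 6.44, 10.9, 6.32 and 9.71 CPM and 4.95, 7.84 and 3.32 CPM in TH2 libraries, with Treg libraries next at 1.24 to 4.06 CPM and 1.88 to 3.47 CPM, so the groups overlapped in the Dohh set. Its difference from Treg there was 1.08 (standard error 0.33) and was not called without TH2 replicate 2 (0.72, adjusted p = 0.103), without Treg replicate 1 (0.94, adjusted p = 0.049) or without Treg replicate 2 (0.94, adjusted p = 0.0322). Cd200r1, an inhibitory receptor, differed by 1.87 to 2.58 and 1.17 to 1.88, with adjusted p = 0.0782 for the Dohh-set difference from TH1 when the deficient libraries were in the fit. Ccr8, a chemokine receptor of TH2 and Treg cells, was higher in TH2 than in TH1 cells by 4.31 and 2.80 and than in TH17 cells by 2.56 and 1.17, with -0.05 and -0.79 against Treg. Ccr4, another chemokine receptor of TH2 cells, was called against TH1 alone (1.29 and 1.11).

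Some receptors known from TH2 cells in tissue were not higher. Il1rl1, the receptor for IL-33, was lower in TH2 than in TH1 libraries, with differences of -1.98 and -1.69 (adjusted p = 0.00663 and 0.00779 from the edgeR quasi-likelihood test), at 1.98 to 2.26 CPM and 0.688 to 0.967 CPM in TH2 cells. The Dohh-set difference was not called without TH1 replicate 2 (-1.38, adjusted p = 0.0576). Icos, a costimulatory receptor, was lower than in TH1 libraries, with differences of -1.61 and -1.44. Il4ra, the chain that binds IL-4, exceeded 2-fold against Treg only (1.92 and 1.97). Jak2, a kinase of cytokine receptors, was at 922, 964, 839 and 1041 CPM and 748, 724 and 840.4 CPM in TH2 libraries, above all other libraries (158 to 535 CPM and 148 to 401 CPM). Jak2 differed by 2.33, 0.93 and 1.54 and 2.31, 1.0 and 1.76 against TH1, TH17 and Treg, so it lay at the 2-fold threshold against TH17, and in the Dohh set it fell below it without TH2 replicate 3 or TH17 replicate 1 or 2 or Treg replicate 1 or 3 (log2 fold changes 0.94 to 1.0, adjusted p 6.04e-08 to 6.3e-06). A gap of this kind between groups without overlap was found in 5.25% of all tested genes of the Odc set and 8.85% of those of the Dohh set.

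Genes known to respond to IL-4 were tested as a list of 18, with 4 of 17 and 4 of 16 tested genes higher in TH2 cells than in each other subset, where 2.23% and 2.08% of all tested genes were. Gata3 is in this list too. Epas1, a hypoxia-related factor, was at 76.9, 71.2, 61.1 and 77.9 CPM and 76.2, 60.6 and 59.2 CPM in TH2 libraries and at 0.231 to 6.77 CPM and 0.995 to 6.99 CPM in the others, log2 fold changes of 3.72 to 6.06 and 3.39 to 5.79 (largest adjusted p = 2.17e-09 and 1.39e-11 from the edgeR quasi-likelihood test). Ccl22, a ligand of CCR4, was at 66.8, 50.7, 80.7 and 140.2 CPM and 43.4, 23.7 and 22.9 CPM against 2.6 to 16.2 CPM and 1.04 to 10.6 CPM, with differences of 2.86 to 3.79 and 1.83 to 4.42. The fourth gene differed between sets. Cd83 was called in the Odc set, where its difference from Treg of 1.10 was under 2-fold without TH2 replicate 4 (0.95, adjusted p = 0.0055) or without Treg replicate 4 (0.92, adjusted p = 0.00351). Cd83 is a marker of activated cells. Ecm1, which helps TH2 cells leave lymph nodes, was called in the Dohh set, with 1.54 to 4.69 there and 0.95 to 4.41 in the Odc set, where its difference from TH1 passed the threshold without TH2 replicate 4 (1.23, adjusted p = 0.0175). Of 18 eicosanoid genes, 11 were tested in each set. None was higher in TH2 cells than in each other subset with edgeR or DESeq2 (3 in each set at an unadjusted p below 0.05). Tbxa2r, the thromboxane receptor, was lower than in each other subset in the Odc set, beside 1.21% of all tested genes. Against Treg cells, 6 and 5 eicosanoid genes were higher (11.6% and 10.5% of all tested genes) and 2 and 3 lower (8.95% and 9.89%). The list medians there were 1.28 and 0.69. Against TH17 cells, 3 in each set were higher (9.85% and 8.53% of all tested genes) and 3 lower (7.27% and 9.26%). Against TH1 cells, 1 and 2 were higher (4.34% and 4.41%) and 3 and 1 lower (4.67% and 5.4%).

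The gene with the largest difference in both sets was Pth (ENSMUSG00000059077.5; chromosome 7 from 113385580 to 113388570, minus strand), which encodes parathyroid hormone, the regulator of blood calcium. It was at 85.3, 83.0, 82.5 and 84.5 CPM in the TH2 libraries of the Odc set, 2517 counts in all, and at 0 counts in all 12 other WT libraries. In the Dohh set it was at 49.2, 46.8 and 45.6 CPM in TH2 libraries, 1420 counts, with 1 count in 1 TH1 library and none elsewhere. Taking 3 counts over a group as the limit, Pth was at least 766-fold, 977-fold and 1009-fold higher in TH2 than in TH1, TH17 and Treg cells of the Odc set. The bounds were 484-fold and 514-fold for TH17 and Treg in the Dohh set, and against the 1 count in TH1 the ratio was 1417 with a 95% counting interval from 254 to 56023.

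The other 9 genes with the largest smallest difference over the 6 comparisons were Adamtsl3, March10, Il5, Htr1b, Stfa2, Ighe, Tcaf2, Slc38a4 and Il13, and except for Stfa2 and Il13 no other WT library exceeded 0.478 CPM of any of them. Adamtsl3, a matrix protein, was at 59.9, 59.4, 51.0 and 36.0 CPM and 40.5, 38.2 and 56.1 CPM in TH2 libraries. March10, a ubiquitin ligase, was at 9.55 to 22.3 CPM and 6.21 to 10.3 CPM, at least 132-fold and 80.2-fold above TH1. Htr1b, a serotonin receptor, was at 7.40 to 27.3 CPM and 6.53 to 9.56 CPM and had no count in the other subsets of the Dohh set, a difference of at least 80.5-fold from TH1. Stfa2, a protease inhibitor of a family of near-identical genes whose reads may be shared, was at 28.4 to 68.3 CPM and 22.8 to 30.3 CPM. It was at least 663-fold and 300.3-fold above Treg. TH17 was its nearest subset in both sets, and its smallest log2 fold change was 5.83. Tcaf2, a regulator of ion channels, and Slc38a4, an amino acid transporter, were at 3.23 to 6.39 CPM and 1.86 to 8.79 CPM in the Odc set and at 3.87 to 4.86 CPM and 4.11 to 6.12 CPM in the Dohh set. Another gene overlaps 21.3% of the March10 exon bases and 18% of those of Htr1b.

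Ighe, the constant region of IgE, was at 5.45, 3.06, 3.50 and 8.42 CPM in TH2 libraries of the Odc set and at 0 counts in the other 12, at least 46.2-fold above TH1. In the Dohh set it was at 5.2, 2.04 and 3.21 CPM in TH2 libraries and at most 0.164 CPM elsewhere. Immunoglobulin genes are known from B cells, and the levels of B cell markers are given beside it. Cd79a and Cd79b, which encode the signalling chains of the B cell receptor, 2 of 4 tested markers of a list of 7, were higher in TH2 cells than in each other subset in both sets, as were 1.44% of the genes tested in both. The summed level of the 7 markers was 17.7 to 64.8 CPM in TH2, 5.64 to 27.6 CPM in TH1, 3.92 to 6.21 CPM in TH17 and 2.91 to 5.33 CPM in Treg libraries of the Odc set, so TH2 and TH1 overlapped. The sums of the Dohh set were 21.6 to 39.3 CPM in TH2, 3.10 to 5.27 CPM in TH1, 9.15 to 17.3 CPM in TH17 and 6.28 to 7.11 CPM in Treg libraries, without overlap.

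Cd79a was at 13.4, 4.53, 13.7 and 16.6 CPM in TH2 libraries and 2.93, 1.74, 3.22 and 7.75 CPM in TH1 libraries of the Odc set, so the groups overlapped. In the Dohh set it was at 9.81, 2.15 and 5.39 CPM in TH2 libraries and 2.54, 1.29 and 2.15 CPM in TH17 libraries, again with an overlap. Cd79b was at 7.59 to 30.7 CPM and 14.9 to 22.5 CPM in TH2 libraries and at 1.30 to 4.09 CPM and 1.65 to 8.84 CPM in the others, without overlap. Ms4a1, which encodes CD20, was at 1.20 to 2.85 CPM and 0.107 to 0.419 CPM in TH2 libraries. The Cd79a difference from TH1 in the Odc set, 1.62, had adjusted p = 0.0046 from the edgeR quasi-likelihood test, and 0.0747 with the deficient libraries in the fit. Against TH17 in the Dohh set, the Cd79a difference of 1.55 was not called without TH2 replicate 1 (0.90, adjusted p = 0.0812). The share of B cells in the cultures was not measured, and the part of these cells in the Ighe result was not tested. In bulk libraries, more cells of a type and more RNA per cell cannot be told apart.

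**Figure D4:**
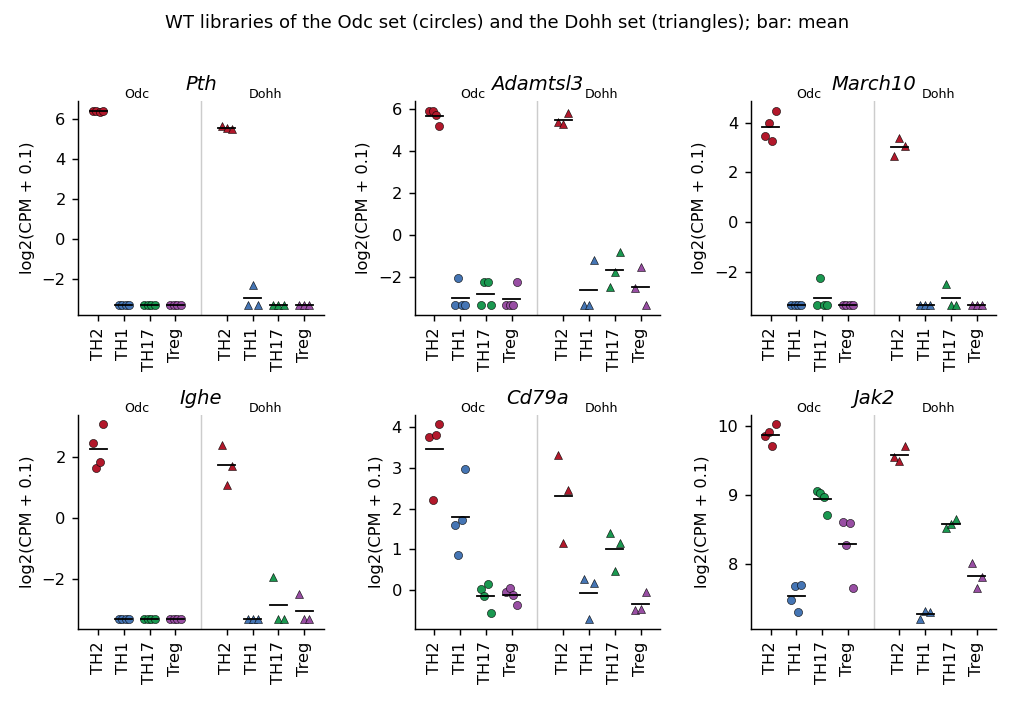
Each point is 1 WT library on the y axis as log2(CPM + 0.1), with subsets on the x axis, circles for the Odc set, triangles for the Dohh set and bars at the means. Pth, Adamtsl3, March10 and Ighe are near the limit of detection outside TH2 cells, Cd79a in TH2 libraries overlaps with TH1 in the Odc set and with TH17 in the Dohh set, and Jak2 is graded from TH2 to TH17, Treg and TH1.

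The receptors for IL-18 and IFN-γ were low in TH2 cells. Il18r1 and Il18rap, the 2 chains of the IL-18 receptor, lie next to each other on chromosome 1. Il18r1 was at 7.80, 8.52, 6.19 and 12.4 CPM in TH2 libraries of the Odc set and 4.78, 6.12 and 5.39 CPM in those of the Dohh set, and at 52.4 to 197 CPM and 62.5 to 113 CPM in the others. All TH2 libraries were below all others, as in 4.71% of the tested genes of the Odc set and 7.77% of those of the Dohh set. Its log2 fold changes were -3.84, -2.91 and -4.32 and -3.76, -3.55 and -4.12 against TH1, TH17 and Treg (largest adjusted p = 2.58e-08 and 2.74e-13 from the edgeR quasi-likelihood test). Il18rap was at 2.6, 2.53, 2.15 and 3.28 CPM and 1.34, 2.04 and 0.802 CPM in TH2 libraries against 20.9 to 51.8 CPM and 10.6 to 27.3 CPM, differences of -3.92 to -3.39 and -4.03 to -3.27.

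Ifngr1, the ligand-binding chain of the IFN-γ receptor, was at 75.4, 56.9, 78.0 and 52.0 CPM and 58.6, 51.3 and 57.0 CPM in TH2 libraries, below the 154 to 483 CPM and 109 to 268 CPM of the others. The differences were -1.49, -1.77 and -2.46 and -1.12, -2.23 and -2.10 (largest adjusted p = 0.000435 and 6.77e-08 from the edgeR quasi-likelihood test). Among 31 tested cytokine receptor chains of a list of 32, these 3 were lower and Il9r and Il1r2 were higher in TH2 cells than in each other subset in both sets, where 1.21% and 1.71% of all tested genes were lower and 2.23% and 2.08% higher. Il1r2, the decoy receptor for IL-1, was at 159, 106, 138 and 51.8 CPM and 176, 127 and 146 CPM, and its difference from TH1 in the Odc set of 1.16 was not called without TH2 replicate 1 (0.95, adjusted p = 0.0555).

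Interferon-responsive genes were lower in TH2 cells in part. Of a list of 33, 6 of 31 tested genes in the Odc set and 3 of 23 in the Dohh set were lower than in each other subset. Beside them stand 1.21% and 1.71% of all tested genes. None was higher than in each other subset with edgeR or DESeq2 (0 and 1 at an unadjusted p below 0.05). Against TH17 cells, 6 genes in each set were higher (9.85% and 8.53% of all tested genes) and 8 and 6 lower (7.27% and 9.26%). Against Treg cells, 2 and 4 were higher (11.6% and 10.5%) and 14 and 5 lower (8.95% and 9.89%). Against TH1 cells, 12 and 6 were lower (4.67% and 5.4%) and none higher. Iigp1 and Tgtp2, GTPases induced by IFN-γ, were called in both sets, and reads of Tgtp2 may be shared with its near-identical neighbour Tgtp1. Iigp1 was at 0.372, 0.533, 0.538 and 0.856 CPM and 0.252, 0 and 0.229 CPM in TH2 libraries, and in the Odc set at 7.46 to 21.8 CPM in TH1, 3.46 to 12.3 CPM in TH17 and 42.9 to 123 CPM in Treg libraries. The median of the list was -0.85, 0.36 and -0.84 against TH1, TH17 and Treg in the Odc set and -0.48, 0.36 and -0.21 in the Dohh set, so the median was above 0 against TH17 cells.

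The other genes with the largest shared decrease were Gcnt3, Ifi206, 2900011O08Rik, Ifi209, Txk, Gap43, Procr and Gm4070. Txk, a kinase of T cell receptor signalling known to favour IFN-γ, was at 4.46, 3.86, 5.25 and 1.57 CPM and 1.85, 2.58 and 5.16 CPM in TH2 libraries against 10.7 to 62.0 CPM and 23.5 to 59.1 CPM, with differences of -3.82 to -3.26 and -4.15 to -3.02 (largest adjusted p = 4.04e-05 and 1.47e-09 from the edgeR quasi-likelihood test). Procr, the endothelial protein C receptor, was at 2.28 to 3.73 CPM and 2.75 to 5.37 CPM against 14.0 to 42.9 CPM and 22.5 to 92.2 CPM. Gap43, known as a growth cone protein of neurons, was at 0.248 to 0.942 CPM and 0.107 to 0.229 CPM in TH2 libraries. TH1 libraries were nearest with 3.08 to 10.8 CPM and 0.826 to 1.85 CPM of Gap43, then TH17 with 6.78 to 37.8 CPM and 3.11 to 6.37 CPM and Treg with 23.7 to 62.1 CPM and 18.5 to 28.0 CPM. Gcnt3, a mucin-type glycosyltransferase, had no count in the TH2 libraries of the Odc set and was at least 38.4-fold lower than in TH17 cells. Ifi206 and Ifi209, of the interferon-inducible p200 family with similar members, were at 0 counts and at 0.133 to 0.404 CPM in TH2 libraries of the Odc set, and the Ifi206 difference from TH17 in the Dohh set, -3.44, was not called without TH2 replicate 1 (-2.86, adjusted p = 0.0673), without TH2 replicate 2 (-3.02, adjusted p = 0.0506) or without TH17 replicate 1 (-2.88, adjusted p = 0.0886).

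**Figure D5:**
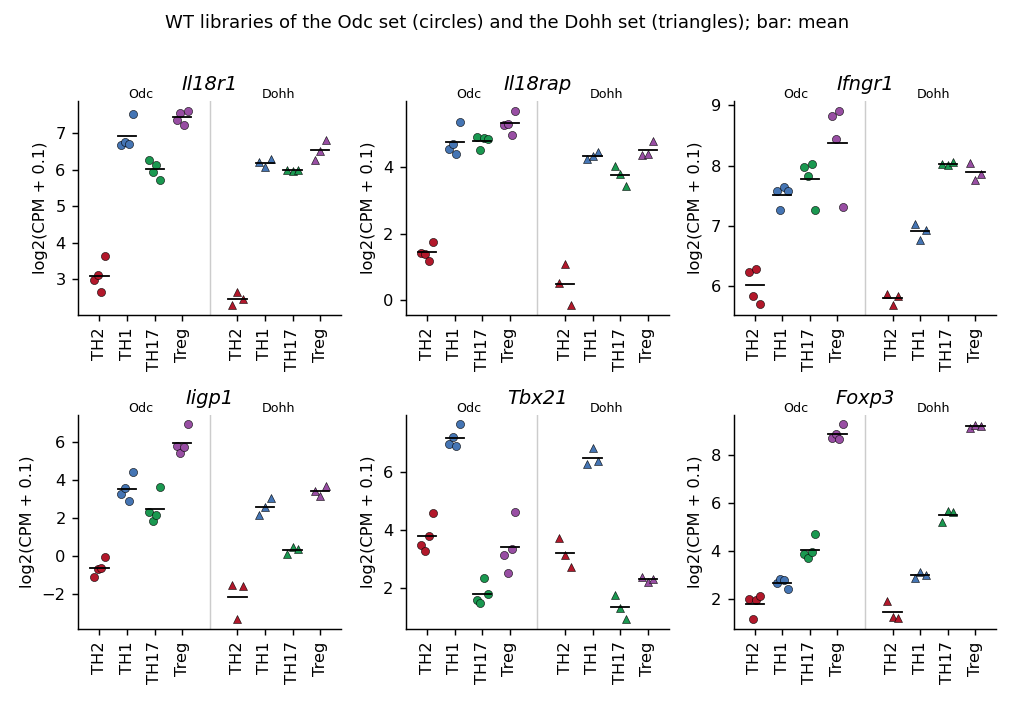
Each point is 1 WT library on the y axis as log2(CPM + 0.1), with subsets on the x axis, circles for the Odc set, triangles for the Dohh set and bars at the means. TH2 libraries (red) are the lowest for Il18r1, Il18rap, Ifngr1, Iigp1 and Foxp3, while for Tbx21 TH17 libraries are lower.

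Many genes of the other lineages were lower in TH2 libraries than in their own subset. Of 22 TH1 genes, 16 in each set were lower in TH2 than in TH1 cells, where 4.67% and 5.4% of all tested genes were. Against TH17 cells, 7 and 12 of them were higher (9.85% and 8.53% of all tested genes) and 5 and 3 lower (7.27% and 9.26%). Against Treg cells, 8 in each set were higher (11.6% and 10.5%) and 5 lower (8.95% and 9.89%). Tbx21, the TH1 lineage factor T-bet, was at 11.1, 9.59, 13.7 and 23.7 CPM and 13.3, 8.70 and 6.53 CPM in TH2 libraries and 120.1 to 202 CPM and 77.6 to 115 CPM in TH1 libraries, and TH2 exceeded TH17 by 2.06 and 1.91. Ifng was at 6.94, 3.60, 7.13 and 12.4 CPM and 3.77, 2.58 and 2.75 CPM in TH2 cells, with differences from TH1 cells of -6.96 (standard error 0.57) and -6.30 (standard error 0.2), and it was called against neither TH17 nor Treg cells. Il12rb2, the inducible IL-12 receptor chain, was lower than in TH1 but higher than in TH17 and Treg cells, with -1.25, 1.22 and 2.43 and -2.01, 1.57 and 2.63.

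Of 16 TH17 genes, 10 in each set were lower in TH2 than in TH17 cells, beside 7.27% and 9.26% of all tested genes. In the other direction, 3 and 4 were higher, beside 9.85% and 8.53%. Against Treg cells, 11 and 9 of the TH17 genes were higher (11.6% and 10.5%) and 3 in each set lower (8.95% and 9.89%). Il17a was at 2.53 to 13.1 CPM and 2.86 to 8.39 CPM in TH2 libraries, with differences of -5.75 and -2.50 from TH17 cells, and higher than in TH1 cells by 2.81 and 1.62, the last not called without TH2 replicate 1 (1.05, adjusted p = 0.0533). Rora, a nuclear receptor of the TH17 program, was lower in TH2 than in each other subset, with -1.36, -2.98 and -1.46 and -1.59, -3.23 and -2.47. Ccl20, the ligand of CCR6, had no count in any TH2 or TH1 library and TH17 cells exceeded TH2 cells at least 223-fold and 85.7-fold. Of 20 Treg genes, 7 in each set were lower in TH2 than in Treg cells, where 8.95% and 9.89% of all tested genes were, and 2 in each set were higher, beside 11.6% and 10.5%. Foxp3, the Treg lineage factor, was at 3.84, 2.13, 3.77 and 4.28 CPM and 3.69, 2.26 and 2.18 CPM in TH2 libraries, with differences from Treg of -7.09 (standard error 0.25) and -7.72 (standard error 0.19).

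Genes of polyamine and hypusine synthesis, the pathway that the study deletes, gave no call across all 3 comparisons. None of 14 tested genes of 15 was higher or lower in TH2 cells than in each other subset in either set with edgeR or DESeq2. Of all tested genes, 2.23% and 2.08% were higher and 1.21% and 1.71% lower, so 0 of 14 is near the background. In single comparisons, 1 gene in each set was lower than in TH17 cells (7.27% and 9.26% of all tested genes were). Against Treg cells, 1 gene in each set was lower (8.95% and 9.89%). In the Dohh set 1, 2 and 3 were higher than in TH1, TH17 and Treg cells (4.41%, 8.53% and 10.5% of all tested genes). None was higher in the Odc set. With an unadjusted p below 0.05 in the same direction in all 3 comparisons, no gene of the list moved in the Odc set and 1 was higher in the Dohh set. Odc1, ornithine decarboxylase, was at 487, 549, 503 and 717 CPM and 661, 644 and 587 CPM in TH2 libraries, with differences of -0.37 to 0.46 and 0.15 to 0.66. Srm, spermidine synthase, was higher than in TH17 and Treg cells in the Dohh set (1.19 and 1.19), and in the Odc set its difference from Treg of 1.15 (adjusted p = 0.0534 from the edgeR quasi-likelihood test) became 1.38 (adjusted p = 7.22e-05) with the replicate number as a block, and it was also called without TH1 replicate 4 (1.15, adjusted p = 0.0383), without TH17 replicate 4 (1.14, adjusted p = 0.0417) or without Treg replicate 4 (2.07, adjusted p = 0.00027). Sms, Dhps, Dohh and Eif5a differed by less than 2-fold in every comparison. 
Lists of 25 cell cycle, 13 T cell identity, 19 sterol synthesis, 18 glycolysis and 14 TGF-beta target genes were all tested in both sets. They held no gene that was higher or lower in TH2 cells than in each other subset with edgeR or DESeq2. Over all tested genes, 2.23% and 2.08% were higher and 1.21% and 1.71% lower. Of the TGF-beta targets, 7 in each set were lower than in Treg cells (8.95% and 9.89% of all tested genes), and 2 higher (11.6% and 10.5%). Against TH17 cells, 6 and 4 were lower (7.27% and 9.26%) and 2 in each set higher (9.85% and 8.53%). Against TH1 cells, 3 and 1 were higher (4.34% and 4.41%). Of the sterol genes, 5 and 3 were lower than in Treg cells (8.95% and 9.89%). In the Dohh set, 4 sterol genes were higher than in TH17 cells (8.53%) and 1 lower than in TH1 cells (5.4%). At an unadjusted p below 0.05 in all 3 comparisons, the cell cycle, T cell identity, sterol, glycolysis and TGF-beta lists gave up to 3 genes in 1 direction. Examples were 3 higher each of the cell cycle and glycolysis lists in the Dohh set and 3 lower of the TGF-beta list in the Odc set. The share of all tested genes under this unadjusted rule is not given here. Such counts, in these and other lists, therefore cannot be read against a background. Of 19 STAT and SOCS genes, Jak2 in the Dohh set was the single call across all 3 comparisons, where 2.08% of all tested genes were higher. Of 16 chemokine receptor and homing genes, 14 were tested. Ccr6 and S1pr1, the egress receptor, were lower than in each other subset in the Dohh set, beside 1.71% of all tested genes. The Odc set gave no such call by edgeR or DESeq2 (1 higher and 1 lower at an unadjusted p below 0.05 in all 3 comparisons). Against TH1, TH17 and Treg cells singly, 5, 7 and 3 were lower and 3, 1 and 6 higher in the Odc set. The Dohh set gave 6, 5 and 5 lower and 2, 2 and 3 higher. Of all tested genes, 4.67%, 7.27% and 8.95% and 5.4%, 9.26% and 9.89% were lower. Higher were 4.34%, 9.85% and 11.6% and 4.41%, 8.53% and 10.5%. Of 15 naive and memory T cell genes, 5 and 7 were lower than in TH17 cells (7.27% and 9.26% of all tested genes were). Against Treg cells, 4 and 6 of them were lower (8.95% and 9.89%). In the other direction, 1 and 2 were higher than in TH17 cells (9.85% and 8.53%) and 2 in each set higher than in Treg cells (11.6% and 10.5%). The list medians were -0.45, -0.57 and -0.13 in the Odc set and -0.35, -0.38 and -0.65 in the Dohh set against TH1, TH17 and Treg. S1pr1 was the single gene of this list lower than each other subset, in the Dohh set. Dapl1 was higher than each other subset in both sets, where 2.23% and 2.08% of all tested genes were, at 6.44 to 20.8 CPM and 6.79 to 14.5 CPM against 0 to 4.79 CPM and 0.119 to 5.02 CPM, though its Dohh-set difference from Treg of 1.35 was not called with DESeq2 (adjusted p = 0.1). Tigit, an inhibitory receptor from the Treg list, was higher in both, at 166 to 179 CPM and 89.2 to 141 CPM against 18 to 78.1 CPM and 15.8 to 57.4 CPM.

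Among markers of cell types other than B cells, most tested markers of myeloid cells were lower in TH2 than in TH17 and Treg cells. Of 10 myeloid markers, 6 and 5 were tested, of which 5 and 4 were lower than in TH17 cells and 4 and 4 lower than in Treg cells, where 7.27% and 9.26% and then 8.95% and 9.89% of all tested genes were. In the Odc set 1 was higher than in TH17 cells (9.85% of all tested genes were). In the Dohh set 1 was higher than in TH1 cells (4.41%) and 1 than in Treg cells (10.5%). The list medians were -3.13 and -3.86 against TH17 and -2.66 and -3.38 against Treg. Their summed level in the Odc set was 14.3 to 20.3 CPM in TH2, 7.46 to 19.0 CPM in TH1, 20.4 to 51.4 CPM in TH17 and 21.7 to 48.8 CPM in Treg libraries. In the Dohh set it was 21.4 to 30.4 CPM in TH2, 24.1 to 25.0 CPM in TH1, 40.2 to 41.8 CPM in TH17 and 29.4 to 31.2 CPM in Treg libraries, and the part of these markers in other results was not tested. Itgam, a myeloid integrin chain, was lower than in each other subset in the Odc set, beside 1.21% of all tested genes. Of 8 markers of CD8 T and NK cells, 6 were tested, of which 2, 3 and 2 were lower than in TH1, TH17 and Treg cells of the Odc set and 2, 1 and 1 in the Dohh set, where 4.67%, 7.27% and 8.95% and 5.4%, 9.26% and 9.89% of all tested genes were. In each set 1, 2 and 1 of the markers were higher, beside 4.34%, 9.85% and 11.6% and 4.41%, 8.53% and 10.5%. Their summed level, Gzma included, was 143 to 344 CPM and 209 to 314 CPM in TH2 libraries and 77.1 to 151 CPM and 53.5 to 75.1 CPM in TH1 libraries, 56.5 to 107 CPM and 39.5 to 44.7 CPM in TH17 libraries and 33.8 to 66.3 CPM and 29.4 to 41.8 CPM in Treg libraries. All 6 medians of the list were below 0, from -0.95 to -0.55 and from -0.52 to -0.25. Gzma, a granzyme, was higher in TH2 cells than in each other subset in both sets, beside 2.23% and 2.08% of all tested genes, at 323, 131, 224 and 114 CPM and 287, 180.2 and 227 CPM against 1.46 to 53.7 CPM and 1.13 to 35.9 CPM. The log2 fold changes were 2.28, 2.86 and 5.94 and 3.14, 5.04 and 6.84 against TH1, TH17 and Treg (largest adjusted p = 0.000173 and 5.41e-08 from the edgeR quasi-likelihood test). Of 10 markers of basophils and mast cells, 4 and 3 were tested, and Kit, the stem cell factor receptor, was lower in TH2 cells than in each other subset in both sets, with Cpa3 in the Odc set, beside 1.21% and 1.71% of all tested genes. Of 8 markers of innate lymphoid cells of type 2, 5 and 6 were tested. Kit and Rora were lower than in each other subset in both sets, beside 1.21% and 1.71% of all tested genes. Against TH1, TH17 and Treg cells, 3, 3 and 3 of these markers were lower in the Odc set and 3, 3 and 4 in the Dohh set. Of all tested genes, 4.67%, 7.27% and 8.95% and 5.4%, 9.26% and 9.89% were lower. In the other direction, 2 of the markers were higher than in TH1 cells of the Dohh set (4.41% of all tested genes were). In each set 1 marker was higher than in Treg cells (11.6% and 10.5%). None of 6 erythroid markers had enough counts to be tested.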

How the data were processed

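RNA from the polarized CD4+ T cell cultures was sequenced as stranded mRNA libraries. The deposited counts are whole numbers of reads per gene, which the authors obtained by mapping to mm10 with STAR and counting with featureCounts. Versions, the annotation release and the strand setting are not given in the sources used here. The authors used DESeq2 for their own comparisons.

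Each table of counts was analysed separately, since it was made separately. WT libraries alone entered the fit, with genes kept by filterByExpr over the 4 WT groups, TMM scaling, and robust quasi-likelihood fits in edgeR 4.0.16 (limma 3.58.1, R 4.3.3). CPM are counts scaled by TMM to a common library size. Calls were made at a fold above 2 and a Benjamini-Hochberg adjusted p below 0.05, and a gene called in the same direction in all 3 pairwise comparisons was taken as higher or lower than each other subset. Depth was similar in all groups, and a fold against a group without counts is a bound from 3 counts over that group. Ratios from 1 to 3 counts were not read as bounds, and intervals and bounds cover counting error only. Gene positions came from GENCODE M21 on GRCm38, which matched 47310 of 47937 identifiers, and promoter sequences from RefSeq on GRCm38.p6.

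The genes named are the members of the TH2 cytokine, transcription factor, receptor, IL-4 response and eicosanoid lists, the 10 genes with the largest and the 10 with the most negative smallest change among genes called in all 6 comparisons, the defining genes and the largest changes of the other lists, the tested genes within 250 kb of Il4 by their lower coordinate, and 6 polyamine genes. Some genes are not reported here and were left out of the lists. The members and the lists were chosen with earlier results of these data known. The test was tried on simulated data before use. Same-numbered libraries deviated together, with r of 0.249 to 0.572 over 12 pairs of a TH2 and another library in the Odc set. In the Dohh set r was 0.137 to 0.363 over 9 pairs. The numbers were thus taken to pair the libraries, but the main tests did not use this pairing. It was used in the alternative fit with the replicate number as a block. No 2 replicates were identical among 36 pairs. Alternatives were another scaling, DESeq2 1.42.0, other filters and call rules, all libraries in the fit, a replicate block and leaving out each library.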

Additional observations from a re-analysis of the deposited data

Results flagged for a closer look

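In each WT group of 4 libraries of the Odc set, the highest and the lowest library were compared with the others for 29 genes, 116 groups in all, of which chance sets apart about 1 in 20. In 14 groups a library lay apart, and in 10 of them it was replicate 4. Replicate 4 of the TH1 libraries held 1889.8 CPM of Ifng where the other 3 held 523 to 708 CPM, 184 CPM of Il18r1 (103 to 107 CPM), 11.3 CPM of Il13 (5.12 to 5.21 CPM) and 0.877 CPM of Il9 (0 in the others). Replicate 4 of the TH17 libraries held 21.7 CPM of Il9 (0.808 to 1.49 CPM) and 12.3 CPM of Iigp1 (3.46 to 4.94 CPM). Replicate 4 of the Treg libraries held 7.13 CPM of Il9 (2.07 to 2.29 CPM), 123 CPM of Iigp1 (42.9 to 55.4 CPM) and 0.113 CPM of Adamtsl3, which is 1 count. Replicate 4 of the TH2 libraries held 72.8 CPM of Il5 (37.9 to 42.9 CPM). Replicate 2 lay apart in Rad50 of TH1 libraries (61.9 CPM against 57.2 to 57.9 CPM), in Il10 of TH17 libraries (34.7 CPM against 42.6 to 44.0 CPM), and by 1 count each in Adamtsl3 of TH1 libraries (0.145 CPM) and March10 of TH17 libraries (0.115 CPM).

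Opposite directions in the 2 sets were looked for among the genes chosen for naming only, not among all tested genes. There, the difference of 1 gene went in opposite directions, with all TH2 libraries on 1 side in each set. The difference between sets was not tested. Ccr3, a chemokine receptor, had a log2 fold change of TH2 against TH17 of -0.71 in the Odc set (adjusted p = 0.0508 from the edgeR quasi-likelihood test) and of 2.30 in the Dohh set (adjusted p = 0.00349).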

How the results depend on the processing

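RLE scaling, DESeq2, no low-count filter and the replicate block kept all counts of calls within 1.5 times. With the block, 305 genes were higher and 171 lower in TH2 cells in the Odc set and 272 and 223 in the Dohh set, of which 286, 156, 266 and 218 were also called without it. The block turned the call for Srm against Treg cells, given with that gene. With a mean count of at least 50, the Odc set gave 131 higher and 93 lower genes, and 590, 1159 and 1507 calls against TH1, TH17 and Treg, the Dohh set 129, 122, 632, 1274 and 1510, and 83 and 59 genes were shared. Fewer genes were tested there. A test of the 2-fold change itself (glmTreat) gave 134, 53, 514, 1131 and 1571 in the Odc set, 144, 68, 537, 1243 and 1641 in the Dohh set, and 92 and 32 shared. An adjusted p below 0.05 alone gave 674, 664, 3023, 6459 and 6880, then 910, 829, 4177, 6312 and 6383, and 432 and 383 shared. TH2 against the mean of the 3 other subsets gave 937 higher and 636 lower, 873 and 815, and 637 and 427 shared. With the deficient libraries in the fit, 132 genes were lower than each other subset in the Dohh set, for which the cause was not tested.

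Without 1 library at a time, the Odc set gave 275 to 313 higher and 132 to 159 lower genes, the Dohh set 255 to 302 and 186 to 224, and 169 to 189 and 83 to 94 were shared. Taking these together with the fits without 1 replicate number in every subset, chosen after seeing the data, the Odc set gave 249 to 313 higher and 115 to 167 lower genes and 939 to 1255, 2030 to 2332 and 2432 to 2775 calls against TH1, TH17 and Treg. The Dohh set gave 242 to 302, 171 to 224, 1122 to 1345, 2158 to 2399 and 2495 to 2737, and 160 to 189 and 76 to 95 genes were shared. Il9 in TH2 against TH17 cells of the Odc set ranged from -1.12 to 1.74 on the log2 scale, changing sign without replicate 4 of the TH17 libraries, and was 1.28 without replicate 4 of every subset. Depth limits genes at a few counts, such as Il31 and the near-zero levels outside TH2 cells, where fitted fold changes depend on the prior count.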

Other observations

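Genes of secreted peptides and growth factors were found among the 176 genes higher in TH2 cells than in each other subset in both sets, and the ones given here were chosen after their values were seen. Inhba, a subunit of activin A, was at 117, 97.1, 107 and 140.2 CPM and 70.5, 50.4 and 53.9 CPM in TH2 libraries against 1.31 to 23.8 CPM and 0.615 to 8.37 CPM in the other WT libraries. Penk, the precursor of enkephalins, was at 66.9, 109, 70.2 and 201 CPM and 50.8, 63.1 and 52.9 CPM, with TH1 libraries at 12.4 to 51.9 CPM and 8.89 to 24.8 CPM, Treg libraries at 20.5 to 32.4 CPM and 8.15 to 21.5 CPM and TH17 libraries at 1.27 to 3.58 CPM and 1.07 to 1.96 CPM. Without replicate 2 of every subset of the Dohh set, the Penk difference from TH1 of 1.67 and that from Treg of 2.04 were no longer called (adjusted p = 0.182 and 0.104 from the edgeR quasi-likelihood test). Grp, gastrin-releasing peptide, was at 2.23 to 8.56 CPM and 4.35 to 5.91 CPM in TH2 and at most 1.13 CPM in other libraries. Il27, a subunit of the cytokine IL-27, was at 2.26 to 5.57 CPM and 1.18 to 2.85 CPM and at most 0.293 CPM elsewhere.

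Azin2, which encodes an antizyme inhibitor, a relative of ornithine decarboxylase that was not in the polyamine list, was at 86.1, 92.8, 97.3 and 85.9 CPM and 172, 161 and 155 CPM in TH2 libraries and at 2.15 to 22.4 CPM and 5.01 to 24.3 CPM in the others. Its log2 fold changes were 2.28, 4.30 and 4.38 and 2.93, 4.65 and 4.57 against TH1, TH17 and Treg (largest adjusted p = 4.35e-08 and 5.95e-13 from the edgeR quasi-likelihood test). It was chosen after its values were seen.

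Ighg1 and Fcer2a, also genes of the B cell program, were among the shared higher genes. Their relation to the summed B cell marker level was not tested. Ighg1, the constant region of IgG1, was at 43.0, 14.9, 45.5 and 63.9 CPM and 38.7, 8.16 and 15.4 CPM in TH2 libraries and at most 4.68 CPM in others. Fcer2a, the low-affinity IgE receptor CD23, was at 7.43, 8.12, 10.5 and 27.8 CPM and 3.52, 3.76 and 4.01 CPM in TH2 libraries. The other subset nearest to TH2 for Fcer2a was Treg in both sets. For Ighg1, Cd79a and Cd79b it was TH1 in the Odc set and TH17 in the Dohh set.

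Klrd1, Klrc1 and Klrc2, which encode CD94 and NKG2 receptor chains, were among the 90 genes lower in TH2 cells in both sets. Klrd1 was at 3.60 to 5.11 CPM and 3.01 to 4.70 CPM in TH2 libraries and at 16.5 to 123 CPM and 19.8 to 101 CPM in the others. These genes were chosen after their values were seen, the 2 Klrc genes are similar copies whose reads may be shared, and the Klrc2 difference from Treg in the Dohh set (-1.88) was not called without TH2 replicate 1 (-1.37, adjusted p = 0.0816) or without Treg replicate 1 (-1.48, adjusted p = 0.0858).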
